A study of Mus musculus with 18 samples.

Results

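A set of 10 genes of fat cell formation and lipid storage were followed in transplanted and cultured mouse fibroblasts: the transcription factors Pparg and Cebpa, the lipid uptake and carrier genes Lpl, Cd36 and Fabp4, the lipid droplet coat genes Plin1 and Plin2, the lipases Pnpla2 and Lipe, and the secreted adipokine Adipoq. The 10 members were chosen by symbol, and all 10 were found among the 38924 Ensembl gene identifiers of the count table. Of these, 8 passed the filter on low counts and were tested with 16577 genes in all, while Adipoq and Plin1 did not pass.

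The RNA came from fibroblasts of heart, kidney and tail of male Rosa mT/mG mice, 10 weeks old and on a C57BL/6 background, which carry a membrane TdTomato reporter in every cell. Cells of each organ were grown for 10 days. Part of them, 400000 to 500000 cells on gelatin foam per graft, was grafted beneath the capsule of the kidney in syngeneic C57BL6/J recipients of 10 to 11 weeks, and after 3 days live CD45−;TdTomato+ cells were sorted from the kidney. These libraries are called HFs (heart), KFs (kidney) and TFs (tail). The remaining cells were re-plated and kept for 3 more days in culture, giving the controls HFc, KFc and TFc. All 6 groups thus share the donor strain and reporter and the first culture period, and each holds 3 libraries. The sort for CD45− cells after those 3 days is described for the transplanted cells only. Transplantation and that sort therefore cannot be told apart. The GEO labels do not say which replicates came from separate animals or cultures, so p-values measure the spread between these libraries.

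As background, PPARγ and C/EBPα are the pair of transcription factors that drive preadipocytes to become fat cells, and they switch on each other and the genes of lipid storage. Lipoprotein lipase frees fatty acids from lipoproteins outside the cell, CD36 helps them across the membrane, and FABP4 carries them inside. Perilipins coat the lipid droplet, and the lipases ATGL (Pnpla2) and HSL (Lipe) break its triglycerides down again. Fibroblasts hold cells that can turn into fat cells, and several of these genes are also used by macrophages, endothelium and muscle.

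Library totals lay between 17927838 and 32245168 counts. Levels are given as CPM, the counts scaled to the size of the library with TMM factors, and fold changes as log2 with their standard error (SE) from edgeR's quasi-likelihood fit of all 18 libraries. Benjamini-Hochberg adjusted p-values from that fit run over all 16577 genes tested. One library goes against its label. Xist, the RNA made from the silent X chromosome of female cells, had 37208 counts in the library labelled KFs replicate 3 and at most 10 in any other, and the Y-linked genes Ddx3y, Eif2s3y and Kdm5d were at 0 CPM in it, although the donors are given as male. The summed level of 9 fibroblast markers was 19720 CPM in that library, against 94970 and 71800 in the other KFs libraries and 15280 to 16200 in KFc. Kidney responses of the members and of the pathway lists are therefore also given without it. The spread of each gene was estimated from all 18 libraries, so some results of the other groups also changed without it. A second library, HFs replicate 2, stood apart in 10 markers of kidney proximal tubule, which summed to 1140 CPM there, 141.5 and 80.4 in the other HFs libraries and 22.5 to 24.99 in HFc.

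The fat cell itself was hardly seen in these libraries. Adiponectin (Adipoq, ENSMUSG00000022878), the most abundant hormone of fat cells, had 1 count in KFs replicate 1 and 0 in all others. Perilipin 1 (Plin1, ENSMUSG00000030546), the droplet coat of mature fat cells, had 2, 0 and 3 counts in HFs, 0, 1 and 0 in KFs, 1, 1 and 1 in TFs, 2 in TFc replicate 3 and 0 in every other cultured library. Both were thus at or under 3 counts, the floor used here for detection, in all 6 groups. Of 11 adipocyte markers, Adipoq, Plin1, Cidec, Lep and Cfd were at or under that floor in every library. The 11 markers together summed to 2.44 to 3.15 CPM in HFc and 3.31 to 9.99 in HFs, to 7.02 to 9.17 in KFc and 2.37 to 7.26 in KFs, and to 4.52 to 4.63 in TFc and 3.91 to 4.91 in TFs. The levels of the other 8 members were thus read in cells with almost no RNA of the defining fat cell genes.

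The promoters of Pparg, Plin1 and Cebpa are shown because they belong to the pair of regulators described first and to the coat gene that stayed undetected beside them. RefSeq (GRCm38.p6) gave windows for 8 of the 10 members, and Lpl and Fabp4 were not in that table. Each window printed holds the 250 bases before the annotated start, read 5′ to 3′ on the strand of the gene, and positions count back from the start, with -1 as the last base shown. The letters TTGCNNAA, a core often bound by C/EBP factors, were searched on both strands and are in capitals in the first 2 sequences, and the TATA box letters TATAAA are in capitals in the third.
Pparg, last of 3 annotated starts, chr6:115421816-115422065, plus strand: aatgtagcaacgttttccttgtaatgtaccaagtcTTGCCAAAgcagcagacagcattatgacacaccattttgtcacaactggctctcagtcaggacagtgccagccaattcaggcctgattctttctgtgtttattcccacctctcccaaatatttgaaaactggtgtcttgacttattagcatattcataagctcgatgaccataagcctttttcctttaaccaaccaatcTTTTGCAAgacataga
Plin1, chr7:79732777-79733026, minus strand: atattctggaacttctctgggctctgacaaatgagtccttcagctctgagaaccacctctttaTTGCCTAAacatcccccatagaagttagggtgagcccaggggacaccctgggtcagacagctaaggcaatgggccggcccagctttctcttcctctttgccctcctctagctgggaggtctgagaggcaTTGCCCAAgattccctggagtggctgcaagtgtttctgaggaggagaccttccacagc
Cebpa, chr7:35119043-35119292, plus strand: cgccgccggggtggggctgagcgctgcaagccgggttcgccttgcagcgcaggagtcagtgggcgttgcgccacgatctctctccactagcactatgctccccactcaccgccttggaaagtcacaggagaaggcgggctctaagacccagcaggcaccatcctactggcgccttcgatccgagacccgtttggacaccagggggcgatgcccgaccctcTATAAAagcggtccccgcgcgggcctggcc

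The Pparg window held TTGCNNAA at -215 on the plus strand and at -16 on the minus strand, and the Plin1 window held it at -187 and -58. In the windows of the other members and at the other 2 Pparg starts these letters were not found. Among 32851 promoter windows of this length, 9.56% held TTGCNNAA and 12.4% held TATAAA, which stood at -30 in Cebpa and, on the minus strand, at -29 of the second Pparg start. CCAAT, which was found in 33.8% of all windows, stood at -144 and -22 before the last and at -83 before the second Pparg start and in the windows of Adipoq, Plin2 and Cd36. The letters AGGTCA, known from nuclear receptor sites and present in 14% of windows, were found at -28 of the first and -9 of the second Pparg start and in the windows of Plin2 and Cd36. These are matches of letters, and the counts do not tell which Pparg start was used. For Cd36 the bases after the start of the window were not found in its annotated transcripts, unlike those of the other members.

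Pparg (ENSMUSG00000000440, chromosome 6, 115360951 to 115490399, plus strand of GRCm38), the master regulator of fat cell formation, fell in transplanted kidney and tail fibroblasts to the level of transplanted heart fibroblasts. In culture it stood at 5.37, 4.15 and 4.42 CPM in KFc and 4.30, 4.28 and 5.13 in TFc, but at 1.35, 2.44 and 1.43 in HFc. After transplantation the libraries held 1.29, 0.962 and 1.16 CPM in KFs, 0.803, 1.23 and 1.23 in TFs and 1.202, 0.926 and 1.48 in HFs. All KFc and TFc libraries lay above all the others, and the 3 transplanted groups overlapped. Every KFs and TFs library lay below every HFc library, a difference that was not tested. The log2 fold change was -2.03 (SE 0.282, adjusted p = 3.07e-05) for KFs/KFc and -2.06 (SE 0.286, adjusted p = 5.05e-05) for TFs/TFc. For HFs/HFc it was -0.53 (SE 0.283, adjusted p = 0.123), which did not pass. Without KFs replicate 3 the kidney value was -2.09 (SE 0.328, adjusted p = 6.65e-05). The summed level of 11 macrophage markers was also lower in KFs (39.6 to 150.6 CPM) than in KFc (408.7 to 435.2) and lower in TFs (42.8 to 50.5) than in TFc (174 to 204), and its part in the fall of Pparg was not tested. The CD45− sort, described for transplanted cells only, cannot be told apart from transplantation in these sums.

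The response of Pparg itself differed between organs. The log2 change in heart was higher than that in tail by 1.53 (SE 0.399, adjusted p = 0.0125) and higher than that in kidney by 1.50 (SE 0.396, adjusted p = 0.0116). Kidney and tail differed by 0.03 (SE 0.391, adjusted p = 0.978). Between organs in culture, HFc was below TFc by a log2 of -1.39 (SE 0.274, adjusted p = 0.000772) and below KFc by -1.41 (SE 0.274, adjusted p = 0.0011). After transplantation the 3 organ differences lay between 0.06 and 0.14, with SE of 0.287 to 0.291, and none passed.

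Cebpa (ENSMUSG00000034957, chromosome 7, 35119293 to 35121928, plus strand), the partner of Pparg, went in opposite directions in heart and kidney. It was nearly absent from cultured heart cells, with 0.911, 0.542 and 0.491 CPM in HFc, and stood at 4.39, 5.465 and 5.66 in HFs, with no overlap. In kidney the order was turned, with 10.9, 10.7 and 9.67 CPM in KFc and 3.76, 3.21 and 3.17 in KFs. Tail fibroblasts held the most, with 23.7, 23.8 and 18.15 CPM in TFc and 10.3, 18.5 and 16.5 in TFs, and these ranges overlapped. The log2 fold change was 2.98 (SE 0.258, adjusted p = 2.12e-07) in heart, a 7.87-fold rise, and -1.62 (SE 0.220, adjusted p = 2.31e-05) in kidney, a 3.08-fold fall. In tail it was -0.54 (SE 0.208, adjusted p = 0.0515). Without KFs replicate 3 the kidney value was -1.63 (SE 0.245, adjusted p = 4.4e-05). The part of the lower macrophage markers of KFs in the kidney fall of Cebpa was not tested.

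Each pair of organs differed in the response of Cebpa. The log2 change in heart exceeded that in tail by 3.51 (SE 0.332, adjusted p = 5.47e-06) and that in kidney by 4.60 (SE 0.339, adjusted p = 1.33e-06). Kidney was below tail by -1.09 (SE 0.300, adjusted p = 0.0298), which is -1.07 (adjusted p = 0.0214) without KFs replicate 3. That kidney and tail difference did not pass without KFc replicate 1 or 2, TFc replicate 1 or 3, or TFs replicate 2 or 3, with an adjusted p of up to 0.0914. In culture the order TFc, KFc, HFc was steep, with HFc below TFc by a log2 of -5.05 (SE 0.264, adjusted p = 9.08e-10). After transplantation HFs was below TFs by only -1.54 (SE 0.217, adjusted p = 9.54e-05) and KFs by -2.16 (SE 0.222, adjusted p = 5.43e-06). HFs was above KFs by 0.62 (SE 0.221, adjusted p = 0.0422), a call lost without HFs replicate 2 or 3, KFs replicate 2 or KFs replicate 3 (0.59, adjusted p = 0.068 without the last) and with library totals alone (0.42, adjusted p = 0.149).

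**Figure D1:**
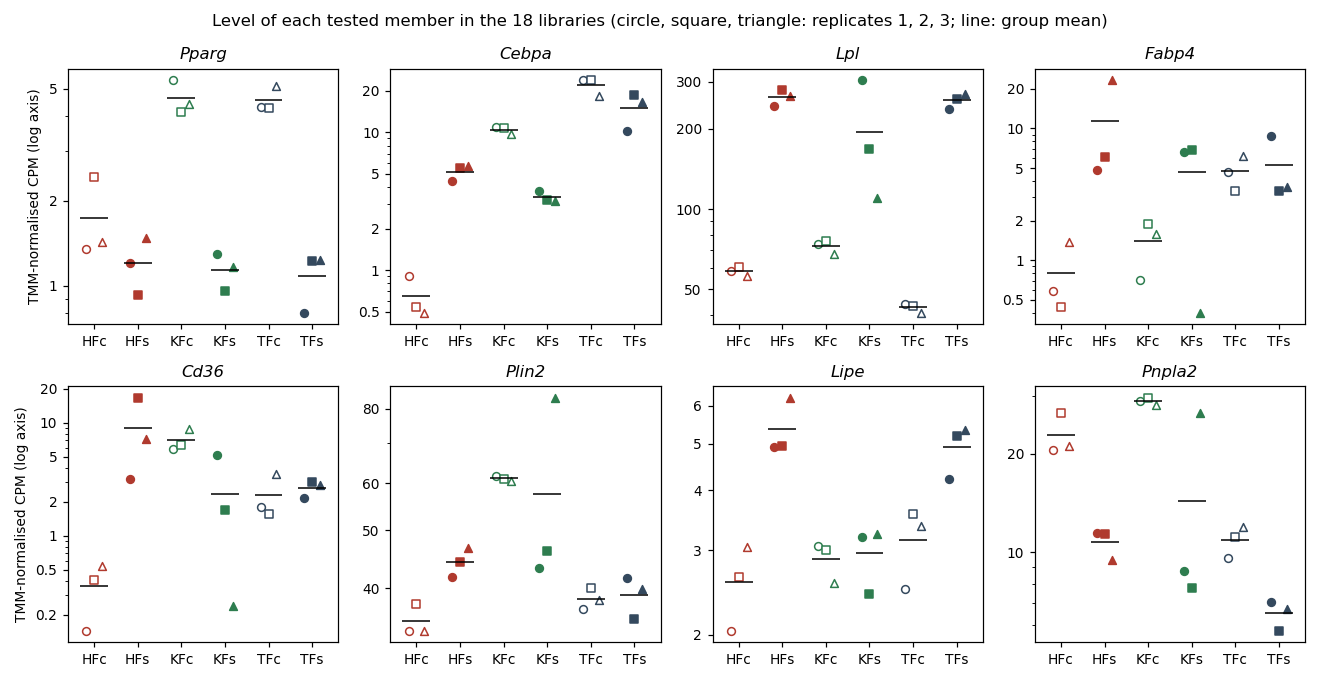
TMM-normalised CPM (log axis) of the 8 tested members in the 18 libraries, with open symbols for cultured and filled symbols for transplanted cells, circle, square and triangle for replicates 1, 2 and 3, and a line at each group mean. Pparg is high only in KFc and TFc, Cebpa rises from HFc to HFs and falls from KFc to KFs, and the KFs replicate 3 triangle lies away from the other KFs libraries for Fabp4, Cd36, Plin2 and Pnpla2.

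Lpl (ENSMUSG00000015568, chromosome 8, 68880491 to 68907448, plus strand), the secreted lipase that frees fatty acids from circulating lipoproteins, was the member that rose in all 3 organs. HFc held 58.7, 60.5 and 55.9 CPM and HFs 244.3, 280.3 and 266.5. TFc held 44.0, 43.4 and 40.8 CPM and TFs 237.6, 258.5 and 270.7. In kidney the values went from 74.2, 75.8 and 67.7 in KFc to 304.6, 167.8 and 109.6 in KFs, so that every transplanted library was above every cultured one in each organ. The log2 fold change was 2.18 (SE 0.242, adjusted p = 2.37e-06) in heart, 2.58 (SE 0.246, adjusted p = 1.42e-06) in tail and 1.42 (SE 0.236, adjusted p = 0.000154) in kidney. Kidney gave 1.66 (SE 0.160, adjusted p = 4.67e-07) without KFs replicate 3 and 0.93, under the fold limit, without KFs replicate 1.

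The rise of Lpl was smaller in kidney than in tail by -1.16 (SE 0.329, adjusted p = 0.0333), and by -0.90 (SE 0.221, adjusted p = 0.00869) without KFs replicate 3. The call was lost without any single KFc or TFc library, KFs replicate 2, TFs replicate 2 or TFs replicate 3, with an adjusted p of up to 0.0739, and in the fit of only these groups (adjusted p = 0.0825). Between cultured groups, KFc was above TFc by a log2 of 0.76 (SE 0.234, adjusted p = 0.0185), a call lost without KFc replicate 2 or TFc replicate 3. The transplanted groups overlapped, and HFs and TFs differed by 0.05 (SE 0.231, adjusted p = 0.918).

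Cd36 (ENSMUSG00000002944, chromosome 5, 17781690 to 17888801, minus strand), a fatty acid translocase and scavenger receptor, rose in transplanted heart fibroblasts from very few reads. HFc held 0.146, 0.406 and 0.541 CPM, or 4 to 12 counts, and HFs 3.19, 16.5 and 7.18. Among the other groups KFc was the highest, with 5.86, 6.35 and 8.74 CPM against 5.13, 1.70 and 0.241 in KFs, and TFc (1.78, 1.57 and 3.51) overlapped with TFs (2.14, 3.00 and 2.80). The heart log2 fold change of 4.64 (SE 0.860, adjusted p = 0.000296) was 3.91 (adjusted p = 0.00149) without HFs replicate 2, the library with the high proximal tubule markers. The kidney value was -1.57 (SE 0.713, adjusted p = 0.0813) and the tail value 0.22 (SE 0.721, adjusted p = 0.834), and neither passed. Without KFs replicate 3 the kidney value was -1.09 (adjusted p = 0.131), and without KFs replicate 1 it was -2.81 and passed (adjusted p = 0.00622).

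The heart response of Cd36 exceeded that of tail by 4.42 (SE 1.108, adjusted p = 0.00995) and that of kidney by 6.21 (SE 1.116, adjusted p = 0.000962), the latter being 5.75 (adjusted p = 0.000165) without KFs replicate 3. In culture HFc was below KFc by a log2 of -4.28 (SE 0.852, adjusted p = 0.00134) and below TFc by -2.66 (SE 0.843, adjusted p = 0.0189), and the second call was lost without HFc replicate 1 or 2 or TFc replicate 3. Among transplanted cells HFs was above TFs by 1.76 (SE 0.718, adjusted p = 0.0926) and above KFs by 1.93 (SE 0.719, adjusted p = 0.0501). Neither passed. The first did under DESeq2 (adjusted p = 0.0499), in the fit of only these groups (0.0491) and without KFs replicate 3 (0.0165), and the second under DESeq2 (0.0224), with DESeq2 size factors, with a mean of at least 10 counts, and without HFs replicate 1 or KFs replicate 1.

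Fabp4 (ENSMUSG00000062515, chromosome 3, 10204088 to 10208576, minus strand), the fatty acid carrier of fat cells that macrophages and capillary endothelium also make, rose in heart fibroblasts with a wide spread. HFc held 0.583, 0.440 and 1.38 CPM and HFs 4.87, 6.08 and 23.2. KFs replicates 1 and 2 held 6.67 and 6.92 CPM, above the 0.709, 1.89 and 1.595 of KFc, while KFs replicate 3 held 0.401, below all of them. TFc (4.69, 3.38 and 6.23) and TFs (8.83, 3.36 and 3.61) overlapped. The heart log2 fold change was 3.88 (SE 0.880, adjusted p = 0.00153), and 2.86 (adjusted p = 0.0109) without HFs replicate 3, the highest library. In kidney the value of 1.74 (SE 0.803, adjusted p = 0.0867) did not pass, whereas without KFs replicate 3 it was 2.23 (SE 0.627, adjusted p = 0.00733). In tail it was 0.14 (SE 0.763, adjusted p = 0.903).

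The heart response of Fabp4 exceeded the tail response by 3.74 (SE 1.147, adjusted p = 0.0284). That call was lost without HFs replicate 3 (2.72, adjusted p = 0.0972), without HFc replicate 1 or 2, TFc replicate 1 or 3 or TFs replicate 2 or 3. Among cultured groups HFc was below TFc by a log2 of -2.61 (SE 0.858, adjusted p = 0.0229), a call lost without HFc replicate 1 or 2 or TFc replicate 3.

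Levels of markers of other cell types also moved beside the changes in Lpl, Cd36 and Fabp4. In bulk RNA, fewer cells of a type and less RNA per cell cannot be told apart. The summed level of 11 endothelial markers was 51.0 to 53.4 CPM in HFc and 83.2 to 95.3 in HFs, 44.2 to 48.3 in KFc and 48.3 to 68.0 in KFs, and 50.7 to 57.7 in TFc and 66.7 to 72.0 in TFs. Of the 10 tested, 9 were called higher and 0 lower in heart (median log2 3.19). In kidney 5 were higher and 1 lower (1.26), and in tail 4 were higher and 0 lower (1.05). In HFc, Emcn, Plvap, Tie1 and Gpihbp1 were at or under 3 counts in all libraries. For the 11 macrophage markers the sum was 96.9 to 110.7 CPM in HFc and 93.9 to 162.7 in HFs, beside the lower sums of KFs and TFs given above, with the lowest KFs value in replicate 3. Of these markers 2 were called higher and 0 lower in heart (median log2 0.52), 0 and 6 in kidney (-1.50), and 0 and 4 in tail (-1.17). The heart response was higher in 5 and lower in 0 against tail and likewise against kidney, with 10.1% and 10.7% of all genes higher in those contrasts. The 10 proximal tubule markers summed to 80.4 to 1140 CPM in HFs, 57.2 to 118.2 in KFs and 125 to 318.9 in TFs, against 22.5 to 24.99 in HFc, 102.8 to 111.2 in KFc and 19.5 to 21.8 in TFc. In KFc 6 of them were at or under 3 counts, and in KFs 0 were. All 10 were called higher in heart and in tail, and 8 in kidney, with 0 lower (median log2 9.09, 7.76 and 8.17). Over all tested genes 18.3%, 11% and 14.7% were called higher in heart, tail and kidney, and 9.33%, 5.53% and 7.99% lower. Fabp4 was highest in HFs replicate 3, which had the lowest endothelial and proximal tubule sums of the HFs libraries and the highest adipocyte sum. In HFs, 6 of the 11 adipocyte markers (Adipoq, Plin1, Cidec, Lep, Cfd and Thrsp) were at or under 3 counts in every library, so that sum came from the others. The macrophage sum of HFs replicate 3 was 154.4 CPM, against 93.9 and 162.7 in HFs replicates 1 and 2. The sum of the 9 fibroblast markers was lowest in it, at 75240 CPM against 125400 and 118600. The part of these other cells in the changes of Lpl, Cd36 and Fabp4 was not tested.

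**Figure D2:**
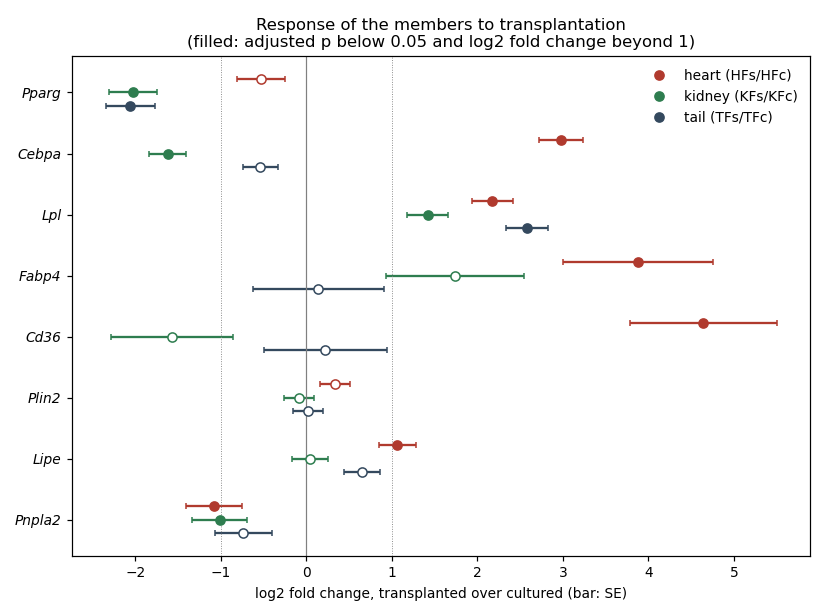
Log2 fold change of the 8 tested members, transplanted over cultured, in heart, kidney and tail fibroblasts, with bars of 1 SE. Filled points passed the adjusted p threshold of 0.05 and the log2 limit of 1 (dotted lines). Lpl is filled on the right in all 3 organs, Pparg on the left in kidney and tail, and Cebpa on opposite sides in heart and kidney.

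Plin2 (ENSMUSG00000028494, chromosome 4, 86648386 to 86670060, minus strand), the perilipin that coats droplets in most cell types, was well expressed throughout. The libraries held 33.9, 37.6 and 33.9 CPM in HFc and 41.8, 44.2 and 46.7 in HFs, and 36.9, 40.1 and 38.2 in TFc and 41.6, 35.5 and 39.8 in TFs. KFc held 61.7, 61.1 and 60.7 CPM, whereas KFs held 43.3, 46.2 and 83.4, so that KFs replicate 3 was above KFc and the others below it. The log2 fold changes were 0.33 (SE 0.176, adjusted p = 0.12) in heart, -0.09 (SE 0.174, adjusted p = 0.706) in kidney and 0.02 (SE 0.175, adjusted p = 0.934) in tail, and none passed. Without KFs replicate 3 the kidney value was -0.49 (SE 0.082, adjusted p = 0.000112), within the fold limit. The heart value was then 0.35 (SE 0.074, adjusted p = 0.000664), also within the fold limit.

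The kidney level of Plin2 was the higher one in culture. KFc exceeded TFc by a log2 of 0.67 (SE 0.175, adjusted p = 0.00727) and HFc was below KFc by -0.80 (SE 0.176, adjusted p = 0.00284). After transplantation KFs exceeded TFs by 0.56 (SE 0.175, adjusted p = 0.0245), but by 0.20 (adjusted p = 0.0678) without KFs replicate 3, and the call was also lost without TFs replicate 2 or 3.

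Pnpla2 (ENSMUSG00000025509, chromosome 7, 141455198 to 141460743, plus strand) encodes ATGL, the lipase that takes the first fatty acid from a stored triglyceride. It was lower in every HFs library, with 11.4, 11.4 and 9.49 CPM, than in HFc, with 20.5, 26.6 and 21.0, and lower in TFs (7.06, 5.77 and 6.70) than in TFc (9.59, 11.1 and 11.97). KFc held 29.0, 29.5 and 28.2 CPM. KFs replicates 1 and 2 held 8.77 and 7.76 CPM, but KFs replicate 3 held 26.6. The log2 fold change was -1.08 (SE 0.327, adjusted p = 0.0107) in heart, -1.01 (SE 0.322, adjusted p = 0.0168) in kidney and -0.74 (SE 0.334, adjusted p = 0.092) in tail. Without KFs replicate 3 the kidney value was -1.85 (SE 0.145, adjusted p = 5.14e-08). The tail value was then -0.76 (SE 0.130, adjusted p = 0.000189), within the fold limit. The kidney call was lost without KFs replicate 1 (-0.76), KFs replicate 2 (-0.76) or KFc replicate 2, with library totals alone (-0.90) and in the fit of only these groups (-1.02, adjusted p = 0.13), and the heart call fell just under the fold limit without HFc replicate 2 or HFs replicate 3.

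Pnpla2 was lowest in tail cells in culture, with KFc above TFc by a log2 of 1.41 (SE 0.326, adjusted p = 0.00336) and HFc above TFc by 1.06 (SE 0.325, adjusted p = 0.0154). The second call was lost without HFc replicate 2 or TFc replicate 1. KFs exceeded TFs by 1.14 (SE 0.335, adjusted p = 0.0182), which was 0.35 (adjusted p = 0.077) without KFs replicate 3 and also lost its call without TFs replicate 2 or 3. HFs and KFs differed by -0.42 (SE 0.327, adjusted p = 0.357), and without KFs replicate 3 the sign turned, with HFs above KFs by 0.39 (adjusted p = 0.0401). The difference of the heart and kidney responses, -0.07 (SE 0.455, adjusted p = 0.942), likewise became 0.79 (adjusted p = 0.00401).

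Lipe (ENSMUSG00000003123, chromosome 7, 25379527 to 25398710, minus strand) encodes hormone-sensitive lipase, which acts on diglycerides after ATGL. It was higher in HFs, with 4.93, 4.94 and 6.23 CPM against 2.04, 2.64 and 3.05 in HFc, a log2 fold change of 1.06 (SE 0.214, adjusted p = 0.000609) that fell just under the fold limit without HFc replicate 1 or HFs replicate 3. In tail, TFs held 4.23, 5.18 and 5.34 CPM and TFc 2.49, 3.57 and 3.38, without overlap, and the change of 0.65 (SE 0.212, adjusted p = 0.0249) stayed within the fold limit. In kidney, KFs (3.19, 2.44 and 3.25) and KFc (3.06, 3.00 and 2.56) overlapped, with 0.04 (SE 0.213, adjusted p = 0.89), or -0.07 (adjusted p = 0.82) without KFs replicate 3.

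In heart fibroblasts Lipe and Pnpla2, which act one after the other on stored fat, thus changed in opposite directions. The heart response of Lipe exceeded that of kidney by 1.02 (SE 0.302, adjusted p = 0.021), and by 1.16 (adjusted p = 0.0116) without KFs replicate 3. The call was lost without HFc replicate 1. No difference in Lipe between cultured groups passed, with log2 values of -0.29 to -0.13, whereas HFs exceeded KFs by 0.86 (SE 0.213, adjusted p = 0.00594) and KFs was below TFs by -0.74 (SE 0.213, adjusted p = 0.017). The latter call was lost without KFs replicate 2, TFs replicate 2 or TFs replicate 3.

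**Figure D3:**
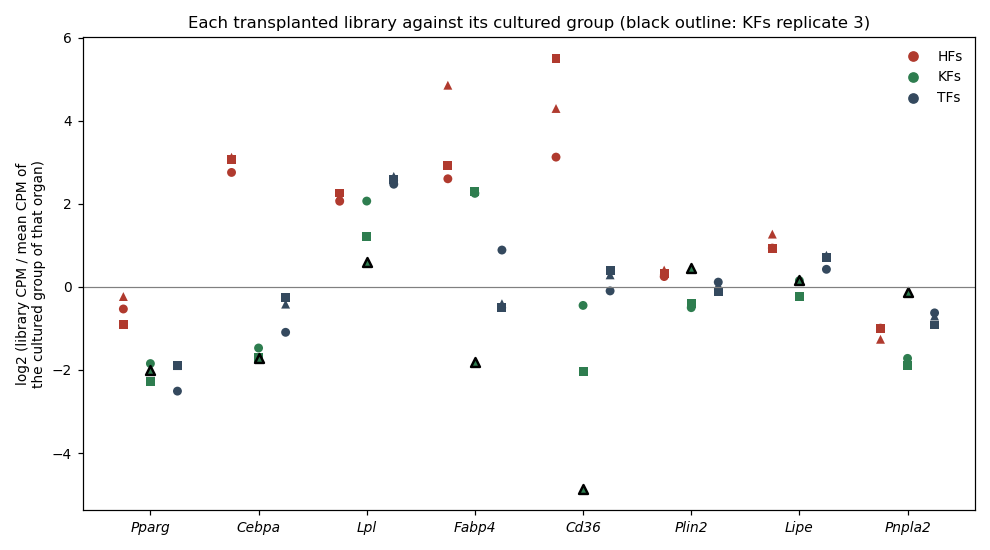
Log2 ratio of each transplanted library to the mean CPM of the cultured group of the same organ, for the 8 tested members, with circle, square and triangle for replicates 1, 2 and 3. The outlined triangle of KFs replicate 3 lies with the other KFs libraries for Pparg, Cebpa and Lipe, below them for Lpl, Fabp4 and Cd36 and above them for Plin2 and Pnpla2.

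Counted together, 6 of the 8 tested members were called in heart, 4 in kidney and 2 in tail. In heart 5 of 8 were higher and 1 lower, where 18.3% and 9.33% of all tested genes were higher and lower. The 5 were Cebpa, Lpl, Cd36, Fabp4 and Lipe. In kidney 1 of 8 was higher and 3 were lower, against 14.7% and 7.99% of all genes, and without KFs replicate 3 Fabp4 joined Lpl, for 5 called in all. In tail Lpl was higher and Pparg lower, with 11% and 5.53% of all genes. Since 2 of the 10 members could not be tested, these counts do not speak for the whole list. The members were also chosen with earlier results of these data known, so the shares of all genes are given for scale only.

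The responses differed between heart and tail in 4 members, all higher in heart, with 10.1% of all genes called higher and 12.7% lower in that contrast. Between heart and kidney 4 members were higher in heart and none lower, with 10.7% and 15.5% of all genes. Without KFs replicate 3, Plin2 (0.84, adjusted p = 4.45e-05) and Pnpla2 (0.79, adjusted p = 0.00401) joined those higher in heart than in kidney. Plin2 (0.345, adjusted p = 0.0186) then also joined those higher in heart than in tail. Kidney and tail differed in 2 members, both lower in kidney, with 6.07% of all genes lower and 4.99% higher, and in 4 without KFs replicate 3, when Plin2 (-0.50, adjusted p = 0.00452) and Pnpla2 (-1.09, adjusted p = 0.000832) joined Cebpa and Lpl. Leaving out 1 of 6 other libraries, KFc replicates 1 and 2, TFc replicates 1 and 3 and TFs replicates 2 and 3, ended both calls in edgeR.

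Among cultured cells, HFc was below TFc in 4 members and above it in 1, with 21% and 20.9% of all genes called, and KFc was above TFc in 3 members and below it in 1, with 17.8% and 18.5%. The first of these totals fell from 5 to 2 without HFc replicate 2 and to 3 without HFc replicate 1 or TFc replicate 3. HFc was below KFc in 4 members, where 14% of all genes were lower and 15.1% higher. Among transplanted cells, HFs was below TFs in Cebpa alone, with 12.7% of all genes lower and 10.3% higher. Without KFs replicate 3 it was also above TFs in Cd36 (1.77, adjusted p = 0.0165) and Pnpla2 (0.74, adjusted p = 0.000431). HFs was above KFs in Cebpa and Lipe, with 14.2% of all genes higher and 19% lower, and 5 members differed without KFs replicate 1 and 1 without HFs replicate 2 or 3. KFs was above TFs in Plin2 and Pnpla2 and below it in Cebpa and Lipe, with 15.3% and 13.8% of all genes, but only Cebpa and Lipe remained without KFs replicate 3 and only Cebpa without TFs replicate 2 or 3. The comparisons of an organ in the same state share their libraries, and no test of the change in these counts was made.

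**Figure D4:**
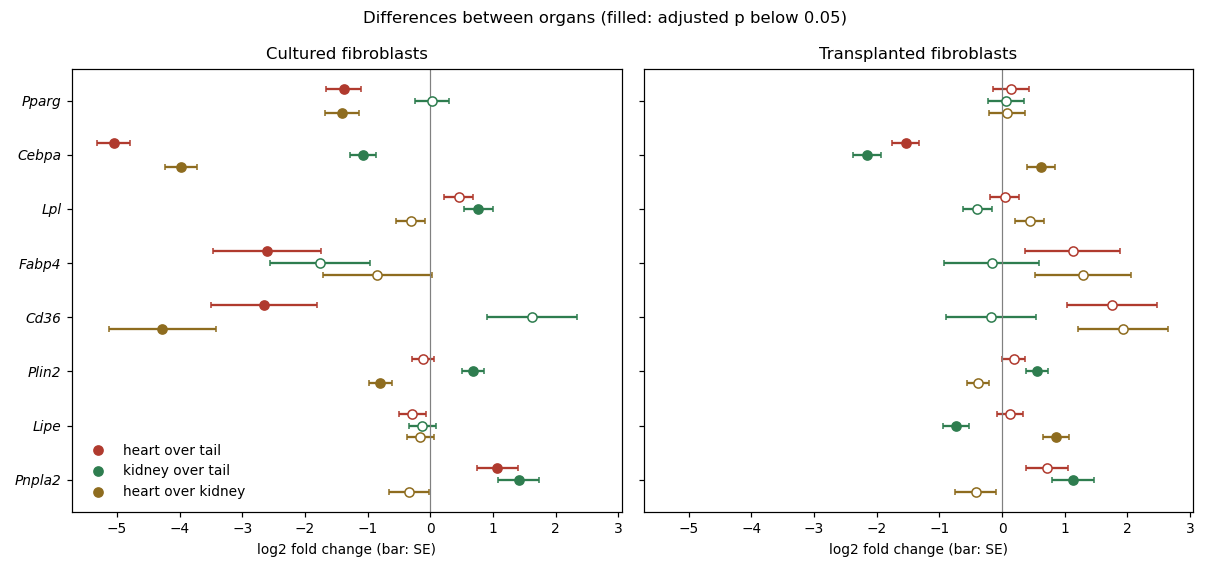
Log2 difference of the 8 tested members between organs in cultured cells (left) and transplanted cells (right), with bars of 1 SE and filled points where the adjusted p was below 0.05. Pparg differs by 1.39 and 1.41 between heart and the other organs in culture and by at most 0.14 after transplantation, and the Cebpa points for heart move towards 0.

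Set against each other by length (RPKM, with the longest annotated coding transcript of each gene), Lpl was the most abundant member in transplanted cells, with a mean of 64.1 RPKM in HFs, 47.2 in KFs and 62.1 in TFs, except in KFs replicate 3, where Plin2 stood at 44.2 and Lpl at 26.6. Plin2 was highest in culture, with 18.6 RPKM in HFc, 32.4 in KFc and 20.3 in TFc. Pparg lay at 0.511 to 2.19 RPKM over the 6 groups and Lipe at 0.694 to 1.45. Fabp4 ranged from 0.892 RPKM in HFc to 12.7 in HFs. In the order of groups by mean level, Pparg showed KFc and TFc, whose ranges overlapped, apart from HFc and the transplanted groups. Cebpa showed TFc, TFs and KFc overlapping in turn, and then HFs, KFs and HFc, each apart from the next. For Fabp4 each group overlapped with its neighbour in that order.

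The genes whose log2 CPM followed each member most closely over the 18 libraries are given as a description, since all libraries share the 6 groups and their depth. For Pparg they were Klhl26 (Pearson r = 0.969), Hspb6 and Ubl3, and for Cebpa Sned1 (0.968), Flrt1 and Agtr1a. Lpl went with the non-coding RNA Airn (0.975) and the metallothioneins Mt1 (0.972) and Mt2 (0.968). Pnpla2 went with Mroh1 (0.966), Mdm2 and Fryl, Plin2 with Cldn4 (0.954), Sort1 and Cd24a, and Lipe with Entpd2 (0.938), Gm17167 and Cyp4v3. For Fabp4 (Bsg, 0.890, then Gda and Mmp23) and Cd36 (Pias2 and Npc2, both 0.880, then Efs) the nearest genes were less close.

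Beyond the members, 74 genes in 8 lists of the same pathways were examined, of which 63 were tested. In heart 15 were higher and 11 lower after transplantation, in kidney 8 and 11, and in tail 6 and 12. These were 23.8% and 17.5% of the tested genes of the lists in heart, 12.7% and 17.5% in kidney and 9.52% and 19% in tail, against 18.3% and 9.33%, 14.7% and 7.99%, and 11% and 5.53% of all tested genes. The kidney counts were 10 higher and 11 lower of 64 tested without KFs replicate 3. Where a list below is given no kidney result without that library, its counts of higher and lower genes did not change. The genes named below as changed in kidney kept their calls without that library. Their median log2 fold change was -0.08 in heart, -0.27 in kidney and -0.14 in tail, where the medians over all genes were 0.05, 0.09 and 0.00. Without the fold limit the counts were 43, 37 and 33. The share of all genes at that threshold is not given here, so these counts are not set against it.

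Among 12 further transcription factors of adipogenesis and lipid synthesis, 4 were higher in heart, none in kidney or tail, and 1 was lower in kidney. Ppargc1a, the coactivator of PPARγ and mitochondrial genes, went from 0.109 to 0.295 CPM in HFc to 2.41 to 5.597 in HFs (log2 4.36, SE 0.651, adjusted p = 4.15e-05). Zfp423, a factor of preadipocyte commitment, went from 2.34 to 3.54 CPM to 21.8 to 27.6 (log2 3.17, adjusted p = 3.04e-05). Klf15 (log2 2.04, adjusted p = 0.00132) and Prdm16 (log2 1.98, adjusted p = 0.00166), the switch of brown fat fate, were also higher in HFs. Of 6 restrainers of adipogenesis, 5 were lower in tail, 1 in heart and 2 in kidney, where 1 was higher (1 lower and 0 higher without KFs replicate 3). Dlk1, the preadipocyte factor that blocks differentiation, fell from 69.3 to 74.4 CPM in TFc to 5.35 to 10.2 in TFs (log2 -3.14, SE 0.452, adjusted p = 7.23e-05). Klf2 (-1.62, adjusted p = 0.00101), Gata2 (-1.36, adjusted p = 4.43e-05) and Gata3 (-1.25, adjusted p = 0.00104) fell with it in tail.

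In the uptake and handling list, 12 genes tested, 3 were higher and 2 lower in heart, 2 and 2 in kidney, and 3 and 1 in tail. The kidney counts were 3 and 2 without KFs replicate 3. Angptl4, a secreted inhibitor of lipoprotein lipase, rose in all 3 organs beside Lpl, from 5.59 to 6.12 CPM in HFc to 233.6 to 352.7 in HFs, from 2.51 to 3.43 in KFc to 130.3 to 180.6 in KFs, and from 4.96 to 5.14 in TFc to 195.2 to 229.4 in TFs. Its log2 fold changes were 5.59 (SE 0.181, adjusted p = 4.83e-11), 5.75 (SE 0.185, adjusted p = 4.69e-11) and 5.38 (SE 0.18, adjusted p = 8.18e-11). The lipase and its inhibitor were thus both higher in every transplanted library than in any cultured library of that organ. Vldlr, a lipoprotein receptor, rose in heart (log2 2.67, adjusted p = 9.81e-05) and tail (1.58, adjusted p = 0.00814), and Slc27a1, a fatty acid transporter, in heart (2.23, adjusted p = 2.01e-06). Fabp3, the heart-type carrier, fell in kidney (-2.66, adjusted p = 5.3e-05) and tail (-1.74, adjusted p = 0.00305).

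Of 7 genes of lipolysis and its control, 2 were higher and 2 lower in heart, 1 and 3 in kidney, and none and 3 in tail. The kidney counts were 2 and 3 without KFs replicate 3. Mgll, which splits monoglycerides after ATGL and HSL, fell in all 3 organs, by a log2 of -1.79 (adjusted p = 0.000503) in heart, -3.08 (adjusted p = 8.31e-06) in kidney (-3.82 without KFs replicate 3) and -2.41 (adjusted p = 0.000278) in tail. Adrb3, the adrenergic receptor of fat cells, fell in kidney (-3.39, adjusted p = 0.00122) from 2.55 to 3.54 CPM to 0.032 to 0.687, and in tail (-3.33, adjusted p = 0.00762) from levels under 1 CPM. G0s2, an inhibitor of ATGL, rose in heart (1.52, SE 0.562, adjusted p = 0.0303), where Pnpla2 fell. It was also called higher in kidney without KFs replicate 3 (1.93, SE 0.645, adjusted p = 0.02), where Pnpla2 was lower too. The heart and kidney responses of G0s2 differed by 0.014 (SE 1.310) with all libraries, which did not pass.

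Of 5 further droplet coat and size genes tested, Hilpda, another inhibitor of ATGL, rose in heart (log2 2.19, adjusted p = 0.00019), kidney (2.35, adjusted p = 0.000107) and tail (1.39, adjusted p = 0.00744), and Fitm2, a protein of droplet budding, fell in tail (-1.29, adjusted p = 3.98e-06). Plin4 was called lower in kidney only without KFs replicate 3 (-5.10, SE 1.156, adjusted p = 0.0016). In triglyceride synthesis, with 7 genes tested, Gpam rose in heart (1.15, adjusted p = 0.000121) and Lpin1 fell in kidney (-1.54, adjusted p = 5.64e-06), and no gene was called in tail. Of 8 tested genes of fatty acid synthesis and desaturation, 5 were lower and 1 higher in heart, and 1 was lower in kidney and in tail. Elovl6 was called higher in kidney only without KFs replicate 3 (1.01, SE 0.203, adjusted p = 0.000627), for 1 higher and 1 lower there. Fasn, the fatty acid synthase, fell in heart from 361.9 to 373.1 CPM to 89.5 to 132.5 (log2 -1.74, SE 0.148, adjusted p = 1.81e-07). Elovl6 fell in heart as well (-1.53, adjusted p = 2.46e-05), Me1 in kidney (-1.50, adjusted p = 1.46e-07) and Scd1, the stearoyl-CoA desaturase, in tail from 414.2 to 426.4 CPM to 60.3 to 87.5 (-2.57, adjusted p = 1.06e-06) and in heart (-1.48, adjusted p = 6.04e-05).

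Of 6 tested genes of secreted and glucose handling proteins, 3 were higher in heart and kidney and 2 in tail, with 1 lower in each. Pck1, an enzyme of glycerol and glucose synthesis that kidney proximal tubule also makes, was at 0 counts in all cultured libraries and at 15.7 to 57.1 CPM in HFs, 4.07 to 12.3 in KFs and 11.1 to 14.5 in TFs. Its highest value was in HFs replicate 2, which also had the highest sum of proximal tubule markers, and the part of that tissue was not tested. Rbp4, a carrier of retinol, was at 0 to 0.036 CPM in HFc and KFc and at 1.10 to 1.59 in HFs and 0.120 to 2.12 in KFs. Aqp7, the glycerol channel, rose in heart (log2 1.66, adjusted p = 0.00225), kidney (1.61, adjusted p = 0.00278) and tail (2.11, adjusted p = 0.000657). Adipor1, the adiponectin receptor, fell in heart (-1.53, SE 0.083, adjusted p = 2.18e-09), kidney (-1.60, SE 0.083, adjusted p = 2.29e-09) and tail (-1.47, SE 0.083, adjusted p = 1.17e-08).

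**Figure D5:**
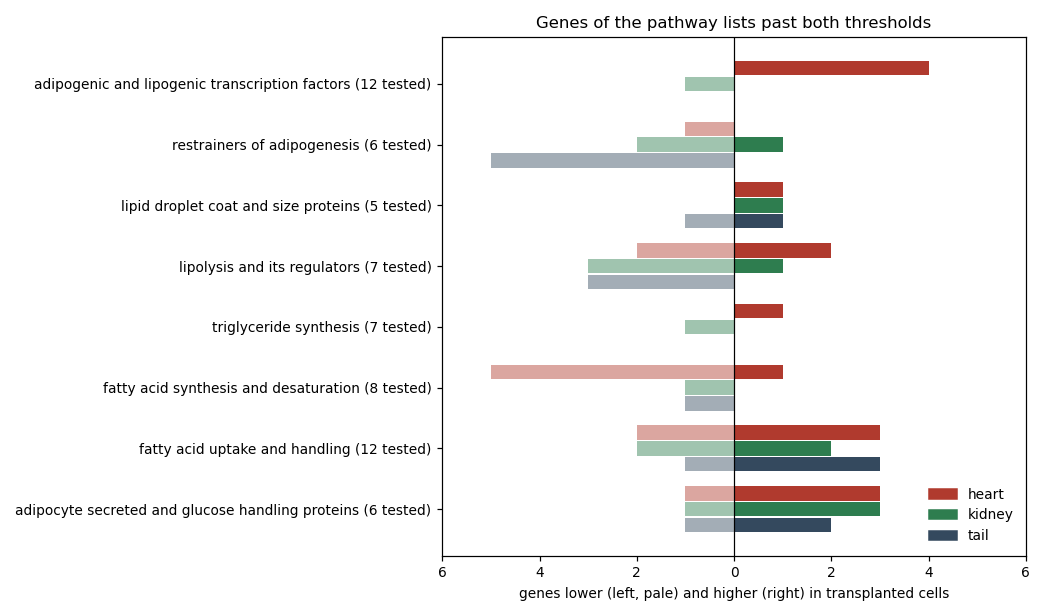
Number of genes in each of the 8 pathway lists that passed both thresholds, lower (left, pale bars) and higher (right) in transplanted than in cultured cells of heart, kidney and tail. The longest bars are 5 restrainers of adipogenesis lower in tail, 5 fatty acid synthesis genes lower in heart and 4 transcription factors higher in heart.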

How the data were processed

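RNA of transplanted (HFs, KFs, TFs) and cultured (HFc, KFc, TFc) fibroblasts was measured in 18 libraries (stranded total RNA, 75-base single-end reads), grouped by their titles. The authors trimmed reads for quality, aligned them with RSEM and Bowtie2, with the strand setting on, and deposited expected counts per Ensembl gene, unnormalised. The deposited values are whole numbers. The rounding step and annotation release are not given in the sources used here. The study's methods name GRCm38 and the submitters' processing notes mm9. Symbols, gene positions and transcript lengths came from GENCODE vM21 (GRCm38), which named 37607 identifiers. The 1317 others held 0.277% of counts and stayed in the tests.

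Counts were fitted in R 4.3.3 with edgeR 4.0.16 (filterByExpr, TMM, glmQLFit and glmQLFTest) on all 18 libraries with 1 mean per group. Transplant comparisons were called at an adjusted p under 0.05 and a log2 fold change beyond 1 in either direction, and organ comparisons and differences of responses at the adjusted p alone. CPM are counts over TMM-scaled totals. Totals were 17927838 to 32245168 counts. A floor of 3 counts covers counting error only. The method was tested on simulated data. All members are named, with up to 4 genes per pathway list, those with the largest called change in any transplant comparison, and the 3 genes nearest each member by correlation. A result that this naming would give is left out. A few values of those genes in other organs are added beside them. Members and lists were chosen with earlier results of these data known. Alternatives were DESeq2 1.42.0, its size factors or library totals in place of TMM, other filters, other thresholds, the replicate block, fits restricted to the compared groups and leaving out each library. Tables and figures were made in Python 3.11.15.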

Additional observations from a re-analysis of the deposited data

Results flagged for a closer look

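For 10 differences between organs in the response to transplantation, edgeR's test of the difference itself gave an adjusted p under 0.05, and these are given as values. The log2 change in heart exceeded that in tail by 1.53 for Pparg, 4.42 for Cd36, 3.51 for Cebpa and 3.74 for Fabp4. The change in heart exceeded that in kidney by 1.50 for Pparg, 6.21 for Cd36, 1.02 for Lipe and 4.60 for Cebpa. The change in kidney was below that in tail by -1.16 for Lpl and -1.09 for Cebpa. The largest of these, for Cd36, rest on 4 to 12 counts per library in HFc, and the comparisons share the libraries of each organ.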

How the results depend on the processing

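Most member results kept their status, called or not called, under the alternatives run. These were 93 under DESeq2, with 3 calls gained, and 95 with DESeq2 size factors, with 1 gained. Library totals alone kept 91, with 4 calls lost and 1 gained. A mean of at least 10 counts kept 95, with 1 gained, and no filter kept 95, with 1 lost. Fits of only the groups compared kept 80, with 7 lost and 9 gained. Leaving out single libraries kept the status of 700 results, many of them not called, lost the call of 54, gained a call for 20 and reversed the sign of 2. The reversed ones were Pnpla2 without KFs replicate 3, at 0.393 for HFs over KFs (lowest -0.695 without another library) and 0.786 for the response of heart minus kidney (lowest -0.326). Neither was called in edgeR's fit of all libraries (adjusted p = 0.357 and 0.942). Fits with the replicate block kept the status of 94 results and lost 2 calls. Deviations of same-numbered libraries from their group means correlated at -0.0423 to 0.045. With 3 libraries per group, these values do not settle whether same-numbered libraries share an animal or culture. Under the block HFs and KFs differed in 1 member, Cebpa being lost, and the Fabp4 response of heart over tail had an adjusted p of 0.0501. Library totals alone shifted the median of all genes by -0.157 for HFc over TFc, -0.220 for HFs over TFs, -0.202 for HFs over KFs and -0.109 for the response of heart minus kidney.

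Member counts changed as follows. HFs over TFs gave 2 under DESeq2 and 3 in the fit of only these groups, against 1. KFs over TFs gave 1 in that fit and 2 with a log2 limit of 1, against 4. HFs over KFs gave 3, with Cd36, under DESeq2, its size factors and the mean of 10 counts, 1 without a filter and 0 both in the fit of only these groups and with the limit, against 2. KFc over TFc gave 2 with the limit, against 4. The kidney minus tail response gave 1 in the fit of only these groups, against 2. For pathway genes the share of all genes at adjusted p alone is not given here. Without the fold limit 43, 37 and 33 pathway genes were called in heart, kidney and tail, against 26, 19 and 18. The cause was not tested. Leaving out single libraries gave 4 to 6 members for HFs/HFc, 3 to 5 for KFs/KFc, 2 to 2 for TFs/TFc, 2 to 6 for HFc/TFc, 3 to 6 for KFc/TFc, 4 to 5 for HFc/KFc, 1 to 3 for HFs/TFs, 1 to 5 for KFs/TFs and 1 to 5 for HFs/KFs. For the differences of responses it gave 3 to 5 for heart minus tail, 0 to 4 for kidney minus tail and 3 to 6 for heart minus kidney. For pathway genes it gave 24 to 28 in heart, 18 to 23 in kidney and 18 to 20 in tail. HFc/TFc fell to 2 without HFc replicate 2 and to 3 without HFc replicate 1 or TFc replicate 3.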
